A study of Mus musculus with 2 samples.

Results

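Bnc1, Isl2, Nupr1, Psrc1 and Tbx3 are the genes that were tested for an effect on the conversion of primordial germ cells (PGCs) into pluripotent embryonic germ cells (EGCs) beside Klf9, Bcl3 and Tead4. They were taken from the deposited expression files by gene symbol alone, with no use of measured values. All 5 were found, each as 1 locus in each file, among 23320 gene symbols present in both files, of which 18742 were above 0 in at least 1 library. No filter on low values was applied to them.

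The study drew its candidates from published arrays that compared PGCs with embryonic stem cells (ESCs). Nupr1, Psrc1 and Tbx3 were on its list of genes higher in ESCs and were over-expressed. Bnc1 and Isl2 were on its list of genes higher in PGCs and were described as knocked down. The RNA-seq data hold 1 control library and 1 library of PGCs that over-expressed Klf9 (Klf9-OE), both from PGCs cultured for 1 day, so the effect of culture itself on the 5 genes could not be read from them. None of the vectors for the 5 genes was used in these libraries, and what the libraries give is the level of each candidate in cultured PGCs and its difference under Klf9-OE.

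Both libraries came from PGCs of E13.5 mouse embryos, offspring of MCH females and Oct4-deltaPE-GFP males of C57BL/6J background, in which a reporter driven by the Oct4 distal enhancer marks germ cells and GFP-positive cells were sorted from the gonads. The paper took gonads of male and female embryos and does not give the share of each sex in either library. An effect of the sexes on the values below was not tested. Both groups were infected with a lentivirus at an MOI of 5. The control group received a control vector and the Klf9-OE group a vector carrying the Klf9 coding region. The sample labels say that the medium contained bFGF, whereas the text of the study describes the culture for RNA-seq as lacking it.

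PGCs are the embryonic precursors of sperm and eggs. They keep expressing core pluripotency factors such as Oct4 (Pou5f1), but they form only germ cells unless they are reprogrammed, for example into EGCs by growth factors in culture. The 5 candidates belong to unrelated families. Bnc1 (basonuclin 1) is a zinc finger protein of germ cells and keratinocytes, Isl2 is a LIM homeodomain transcription factor known from motor neurons, and Tbx3 is a T-box factor that supports self-renewal of ESCs. Nupr1 is a small chromatin-associated protein induced by cellular stress, and Psrc1 is a microtubule-binding protein of the mitotic spindle whose expression has been linked to p53. Klf9 itself is a zinc finger factor of the Krüppel-like family that binds GC-rich boxes in promoters.

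The sequences listed for the knock-down of Bnc1 and Isl2 are shown because their letters tell which transcript each would address. Each is the 21-base sense strand of the short hairpin RNA (shRNA) listed for that gene, in lower case.
shRNA listed for Bnc1: cgcaagtggaatttcgacttt
shRNA listed for Isl2: cccaacagtatggtacctagt
The 21 bases listed for Isl2 lay in exon 6 of Isl2, inside the coding sequence, at chr9:55545504-55545524 on the plus strand (mm10, GENCODE annotation), and matched no other gene. The 21 bases listed for Bnc1 matched no Bnc1 transcript in the sense direction, the only one searched. The closest stretch of Bnc1 in that direction differed at 8 of 21 bases. They matched exactly the coding sequence of Cdkn1b, the cyclin-dependent kinase inhibitor p27, at chr6:134921091-134921111 on the plus strand, and no other gene among 141767 transcripts of 55450 genes. Among the 4 shRNA targets listed, 3 matched the gene they were listed for, and all 10 RT-qPCR primers listed for the 5 candidates matched their own gene and no other. The match is a fact about the listed letters, and the activity of the vector was not measured in these libraries. Cdkn1b, named here after its match was seen, was at 7.05 RPKM in the control (RPKM, the read number scaled to exon length and to the mapped reads of the library) and at 7.02 RPKM in Klf9-OE.

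The promoters of Bnc1, Isl2 and Nupr1 are shown because these 3 candidates differed between the libraries by more than their intervals and because GC boxes are the known kind of site of Krüppel-like factors. Each sequence is the 250 bases before the RefSeq start (GRCm38.p6, the build also called mm10), written 5′ to 3′ on the strand of the gene, with the GC box letters GGGCGG, or CCGCCC for the other strand, in capitals.
Bnc1, chr7:81992300-81992549, minus strand: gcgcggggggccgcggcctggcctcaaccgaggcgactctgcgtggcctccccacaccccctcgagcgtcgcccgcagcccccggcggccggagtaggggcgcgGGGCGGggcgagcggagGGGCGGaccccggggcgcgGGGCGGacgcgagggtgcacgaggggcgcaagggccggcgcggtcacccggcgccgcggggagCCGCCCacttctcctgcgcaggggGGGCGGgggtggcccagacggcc
Isl2, chr9:55540899-55541148, plus strand: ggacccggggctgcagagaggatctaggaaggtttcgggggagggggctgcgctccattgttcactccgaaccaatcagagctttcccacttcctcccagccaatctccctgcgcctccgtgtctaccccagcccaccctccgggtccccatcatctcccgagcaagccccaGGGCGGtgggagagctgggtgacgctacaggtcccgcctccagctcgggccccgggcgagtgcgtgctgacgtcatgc
Nupr1, chr7:126625471-126625720, minus strand: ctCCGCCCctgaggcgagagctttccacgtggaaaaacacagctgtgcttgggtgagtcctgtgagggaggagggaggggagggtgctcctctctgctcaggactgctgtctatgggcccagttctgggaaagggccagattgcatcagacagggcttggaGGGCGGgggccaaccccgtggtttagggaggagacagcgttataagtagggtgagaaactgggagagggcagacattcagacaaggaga
The GENCODE transcript of Nupr1 starts upstream of the RefSeq start, so 206 of the 250 bases shown for it, with the GC box 89 bases before the RefSeq start, lie within the span of that transcript. The Bnc1 promoter held 5 GC boxes, the Nupr1 promoter 2 and the Isl2 promoter 1. Of the 2 RefSeq starts of Psrc1, whose intervals overlapped between the libraries, the promoter of 1 start held 1 GC box and that of the other held 0. The letters occurred in 32.7% of 32817 mouse promoters of the same length, and 16.7% held 2 or more. The shorter letters CACCC, or GGGTG for the other strand, were found 4 times before Bnc1, 2 times before Isl2 and 3 times before Nupr1. They were found 1 time before each Psrc1 start. Of all promoters, 52.0% held at least 1 match and 21.1% held 2 or more. No promoter was matched for Tbx3. The motifs can overlap, and a match of letters is no evidence of binding. G or C made up 83.6% of the Bnc1 promoter, 66.8% for Isl2, 59.2% for Nupr1, and 61.6% and 63.6% for the Psrc1 starts. The median over all promoters was 52.4%, so the shares over all promoters are no like background for any of these.

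The series as a whole set the frame for these values. Klf9 was at 2.27 RPKM in the control and 80.8 RPKM in Klf9-OE, so by RPKM the over-expressed gene was 35.6-fold higher in the library labelled for it. The vector carried only the coding region, so RPKM over the whole locus does not measure the strength of over-expression. By RT-qPCR at the same MOI the paper reports a far larger increase, after a longer culture of younger PGCs. The files give no read totals, but the Cufflinks 95% interval of a value gives back an implied number of reads, and by this measure the Klf9-OE library held 1.20 reads for each control read. For Klf9 the implied reads were 230 in the control and 1825 in Klf9-OE, a ratio of 7.95 where the RPKM and the depth give 42.8. Low genes, those of 1 to 9 implied reads, had an even number of them in 36.2% of 2170 cases in the control library but in 87.8% of 1809 cases in Klf9-OE, so each Klf9-OE interval was also computed as if its reads had been counted in pairs, that is, widened by the square root of 2. The germ cell markers Dazl and Ddx4 were at 351 and 299.9 RPKM in the control. With 1 library per group there was no spread between cultures, no test could be made, and the intervals cover estimation error within a library only.

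The level of the candidates spanned about 2 orders of magnitude, and each of the 5 was lower in Klf9-OE than in the control. The order of levels was Nupr1, Bnc1, Psrc1, Isl2 and Tbx3 in both libraries. RPKM is a level per length of transcript, so levels could be compared between genes. In the control, Nupr1 lay above Bnc1 and Bnc1 above Psrc1 with intervals apart, and Isl2 above Tbx3 likewise, whereas the interval of Psrc1 overlapped those of Isl2 and Tbx3. In Klf9-OE the intervals of all neighbours in this order were apart.

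**Figure D1:**
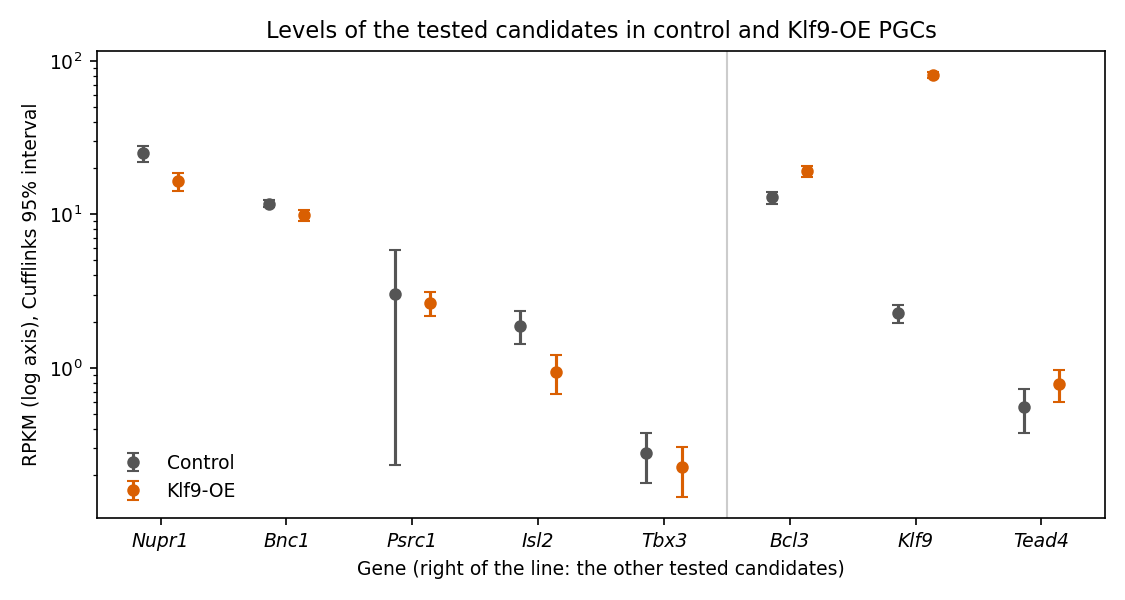
RPKM (log axis) of the 5 candidates and, right of the line, of Bcl3, Klf9 and Tead4 in the control library (grey) and the Klf9-OE library (orange), with Cufflinks 95% intervals as bars. The 5 candidates on the left are lower in Klf9-OE, from Nupr1 near 24.96 RPKM to Tbx3 near 0.278 RPKM in the control, while the 3 genes on the right are higher.

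Nupr1 had the highest level of the 5. It was at 24.96 RPKM in the control (interval 22.004 to 27.9) and 16.4 RPKM in Klf9-OE (interval 14.2 to 18.6). The intervals did not overlap, and they stayed apart when the Klf9-OE interval was widened to an upper bound of 19.5 RPKM. The ratio of Klf9-OE to control was 0.656, with a 95% interval of 0.549 to 0.784 from the implied reads, 285 in the control and 225 in Klf9-OE, and of 0.525 to 0.819 with the Klf9-OE reads taken in pairs. On the scale of log2(RPKM + 0.1), the difference was -0.61. Among the 18742 genes, 79.9% lay below Nupr1 in the control and 73.1% in Klf9-OE. The gene has 3 exons at chr7:126623249-126625676 on the minus strand (mm10, GENCODE annotation, as for the other candidates), and its coding sequence makes up 29.0% of a transcript of 829 bases.

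Bnc1 was the other candidate expressed at more than a few RPKM. It was at 11.7 RPKM in the control (interval 11.1 to 12.3) and 9.84 RPKM in Klf9-OE (interval 8.99 to 10.7). The intervals were apart, but only just so when the Klf9-OE interval was widened, with an upper bound of 11.04 RPKM against a lower bound of 11.08 RPKM in the control. The ratio was 0.841 with an interval of 0.760 to 0.931, or 0.737 to 0.961 with reads in pairs, and the log2 difference was -0.25. The implied reads were 1429 in the control and 540 in Klf9-OE, a ratio of 0.378 where the RPKM and the depth give 1.01, so the Klf9-OE interval was wider than the number of reads alone would make it. Bnc1 is a gene of 5 exons at chr7:81966672-81992292 on the minus strand, with a transcript of 4646 bases.

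Isl2 had the largest difference of the 5. It was at 1.89 RPKM in the control (interval 1.44 to 2.33) and 0.940 RPKM in Klf9-OE (interval 0.671 to 1.21). The intervals were apart, also with the Klf9-OE interval widened to an upper bound of 1.32 RPKM. The ratio was 0.498, that is 2.01-fold lower, with an interval of 0.344 to 0.722, or 0.312 to 0.796 with reads in pairs, and the log2 difference was -0.93. It rested on 71.2 implied reads in the control and 49.0 in Klf9-OE. Isl2 just passed the limit of 2-fold, and it no longer passed when the libraries were rescaled to the same upper quartile or the same sum. The gene lies at chr9:55541148-55546180 on the plus strand with 6 exons, the last of which holds the shRNA target printed above.

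Psrc1 and Tbx3 did not differ by more than their intervals. Psrc1, a gene of 8 exons at chr3:108383859-108388231 on the plus strand, was at 3.03 RPKM in the control (interval 0.233 to 5.82) and 2.64 RPKM in Klf9-OE (interval 2.17 to 3.10). The ratio was 0.871 with an interval of 0.340 to 2.23, so differences of up to 2-fold in either direction lay within it. The control interval of Psrc1 stood for 4.69 implied reads beside 130 in Klf9-OE, a ratio of 27.7 where the RPKM and the depth give 1.05, so the width of the control interval did not reflect the read number. Tbx3, a gene of 8 exons at chr5:119671018-119684724 on the plus strand, was at 0.278 RPKM in the control (interval 0.178 to 0.378) and 0.225 RPKM in Klf9-OE (interval 0.145 to 0.306). Its ratio was 0.811 with an interval of 0.489 to 1.35, from 31.1 and 31.3 implied reads. Tbx3 was thus detected in both libraries at a level above that of 23.6% of the genes in the control and 20.7% in Klf9-OE.

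**Figure D2:**
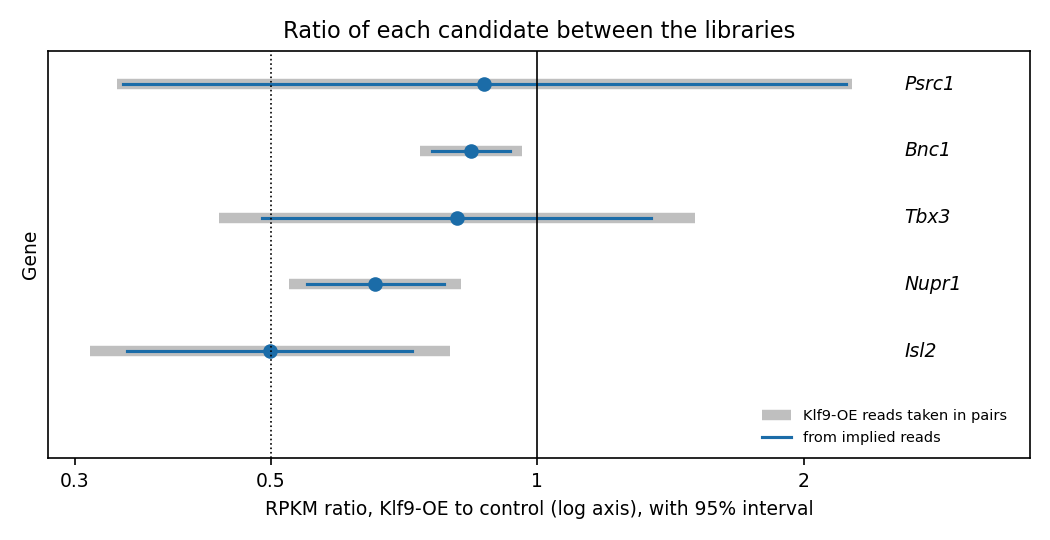
Ratio of RPKM in Klf9-OE to control (log axis) for each candidate, with the 95% interval from the implied reads (blue) and with Klf9-OE reads taken in pairs (grey). The solid line marks equal levels and the dotted line a ratio of 0.5. The intervals of Bnc1, Nupr1 and Isl2 lie below 1, and those of Psrc1 and Tbx3 include 1.

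Counted over the 5 candidates, 1 (Isl2) was at least 2-fold lower, beside 9.43% of all 18742 genes, and 0 were at least 2-fold higher, beside 9.82%. Intervals were apart with the lower level in Klf9-OE for 3 of the 5, beside 14.4% of 18631 genes with 1 locus in each file, and apart in the other direction for 0, beside 11.2%. With the Klf9-OE interval widened, the same 3 candidates remained apart, beside 12.0% of genes. Intervals are narrower for genes with more reads, and among genes of at least 1 RPKM in at least 1 library 20.2% were apart with the lower level in Klf9-OE. A level below that of the control was found for 52.0% of all genes, and 5 genes are few to read against such a share. The median log2 difference of the 5 was -0.25, beside -0.015 over all genes.

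The other 3 tested candidates lay in the opposite direction. Bcl3, a nuclear cofactor of NF-kappaB, was at 12.9 RPKM in the control (interval 11.7 to 14.1) and 19.2 RPKM in Klf9-OE (interval 17.6 to 20.8). Tead4, a transcription factor of the Hippo pathway, was at 0.553 RPKM in the control (interval 0.377 to 0.730) and 0.784 RPKM in Klf9-OE (interval 0.595 to 0.972). The intervals of Bcl3 were apart, those of Tead4 overlapped, and Klf9 was itself over-expressed. Whether the 5 candidates as a group differed from these 3 was not tested.

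The candidates were also set beside the list they came from, 39 transcription factor and epigenetic genes that the study took from published arrays on other samples. Of these, 36 were found by symbol, 18 lower and 18 higher in Klf9-OE, with a median log2 difference of -0.021. At least 2-fold higher were 4 genes and 3 were at least 2-fold lower, and among genes of at least 1 RPKM 1 (Klf9) was higher and 3 were lower. Over all genes the shares were 9.82% higher and 9.43% lower. Eomes, Nr0b1 and Prrx1, the other 2-fold higher genes, lay below 1 RPKM in both libraries. Intervals were apart for 7 in the higher and 9 in the lower direction, and for 6 and 7 with the Klf9-OE interval widened. Without widening, the shares were 11.2% and 14.4% of all genes and 14.8% and 20.2% of genes of at least 1 RPKM. The counts are too small to set the list apart from these shares. Bnc1, Isl2 and Nupr1 were 3 of those 9.

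Among the transcription factors listed as higher in ESCs, to which Nupr1, Psrc1 and Tbx3 belong, the 14 other genes had a median log2 difference of 0.27, and 3 had intervals apart in the higher and 2 in the lower direction. Over all genes the shares apart were 11.2% and 14.4%. Apobec1, an RNA and DNA cytidine deaminase, was at 4.98 RPKM in the control and 1.31 in Klf9-OE. Its implied reads were 73.2 and 80.6, a ratio of 1.10 where the RPKM and the depth give 0.316. Its intervals thus did not simply reflect the read number. Stat3, the effector of LIF signalling, was at 105.4 and 94.9 RPKM. The 5 genes listed as higher in PGCs beside Bnc1 and Isl2 had a median of -0.11, with intervals apart for 2 in the higher and 1 in the lower direction, the latter 0 with the widened interval. They stand beside the same shares over all genes and are too few to read against them. Ssbp2, a cofactor of LIM homeodomain complexes, had the highest level among them, 30.8 RPKM in the control and 28.5 in Klf9-OE. Of the epigenetic genes, Dnmt3l, the cofactor of de novo DNA methyltransferases in germ cells, was at 80.9 RPKM in the control and 38.1 in Klf9-OE, with intervals apart. Uhrf1, which recruits the maintenance methyltransferase, was at 36.9 and 47.9 RPKM and also had intervals apart. The highest epigenetic genes listed for PGCs were Dr1, a repressor of the basal transcription machinery, at 56.6 and 57.9 RPKM with overlap, and the histone H3 methyltransferase Suv39h1, at 51.5 and 56.5 RPKM with intervals apart that overlapped when the Klf9-OE interval was widened. The candidates thus lay between Dnmt3l and Apobec1 at the lower end and Klf9 at the upper end of their own list.

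**Figure D3:**
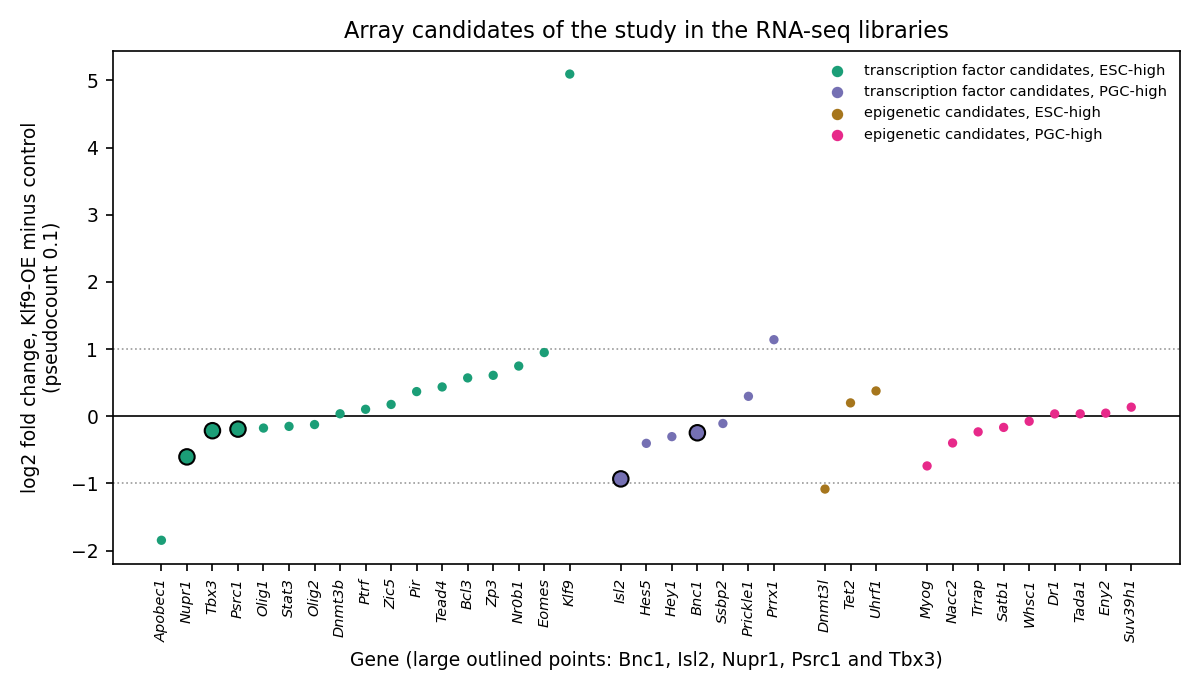
Log2 difference in RPKM + 0.1, Klf9-OE minus control, for the 36 array candidates found in both files, by the list they came from. The large outlined points are the 5 candidates, all below 0, with Isl2 at -0.93 the lowest among the genes listed as PGC-high. The dotted lines mark a log2 difference of 1 and -1.

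The closest relatives of the candidates were looked at next. Bnc2, the paralog of Bnc1, was at 17.6 RPKM in the control (interval 16.8 to 18.5) and 18.1 RPKM in Klf9-OE (interval 17.3 to 18.9). Its intervals overlapped and it was expressed above Bnc1 in both libraries. Isl1, the paralog of Isl2, was at 1.64 RPKM in the control (interval 1.31 to 1.98) and 1.26 RPKM in Klf9-OE (interval 1.00 to 1.51), again with overlap. Nupr1l, the paralog of Nupr1, was at 0.428 and 0.281 RPKM from 5 and 4 implied reads, too few to place it. Tbx2, the closest T-box relative of Tbx3, was at 0.930 RPKM in the control (interval 0.714 to 1.15) and 0.620 RPKM in Klf9-OE (interval 0.470 to 0.771). All these paralogs had overlapping intervals. The ratio of Tbx2, however, was 0.667 with an interval of 0.477 to 0.934, which lay below 1, or 0.441 to 1.01 with reads in pairs. The difference between a candidate and its paralog was not tested.

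LIM homeodomain factors such as Isl2 act in complexes with Ldb1 and single-stranded DNA-binding cofactors. Of 12 such factors, Isl2 among them, 1 had intervals apart in the higher and 2 in the lower direction (Isl2 and Lhx4), with a median of -0.08, and Isl2 alone of these 2 stayed apart with the widened interval. Over all genes the shares apart were 11.2% and 14.4%. Lmx1b and Lhx1 had the highest levels, 4.204 and 2.50 RPKM in the control and 4.37 and 3.08 in Klf9-OE, so Isl2 was one of several low-level members of this family in the PGCs. Of 9 LIM cofactors, Ldb1 was at 62.6 RPKM in the control and 66.6 in Klf9-OE. Ssbp4 was at 64.3 and 57.7 RPKM, with a Klf9-OE interval of 0 to 11330 RPKM that places it nowhere. Lmo1, which competes for Ldb1, was at 20.8 RPKM in the control and 13.7 in Klf9-OE and was the only cofactor with intervals apart, beside 14.4% of all genes in that direction.

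T-box factors share a DNA-binding domain and mostly pattern the embryo. Of 17 listed, 16 were found, Mga was not matched by symbol, and Tbx10 was listed at 0 in both libraries. Intervals were apart for 2 in the higher direction, 1 of them also when widened, and for 1 in the lower direction. Over all genes the shares apart were 11.2% and 14.4%. Tbx4 and Tbx1 had the highest levels, 3.62 and 1.46 RPKM in the control and 2.89 and 1.01 in Klf9-OE. The naive pluripotency genes with which Tbx3 acts in ESCs were expressed far above it. Among 10 of them, 6 had intervals apart in the lower direction and 2 in the higher, with a median of -0.26. The shares among all genes of at least 1 RPKM were 20.2% and 14.8%. Pou5f1 was at 387 RPKM in the control and 277 in Klf9-OE, Sall4 at 54.1 and 47.7 RPKM.

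Nupr1 is induced downstream of the Atf4 arm of the stress response. Of 13 genes of that response, 12 were above 0, and intervals were apart for 3 in the higher and 3 in the lower direction (2 with the widened interval), with a median of 0.042. Among genes of at least 1 RPKM the shares apart were 14.8% and 20.2%. Ddit4, a stress-induced inhibitor of mTORC1, was at 54.95 RPKM in the control and 26.6 in Klf9-OE, and Atf3, a stress-induced repressor, at 1.07 and 2.25 RPKM. The chaperone Hspa5 and the asparagine synthetase Asns had the highest levels, 349.99 and 72.3 RPKM in the control and 372 and 66.3 in Klf9-OE. Ddit3 was listed at 0 in both libraries. The lower level of Nupr1 thus stood beside stress genes that lay in both directions.

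Psrc1 binds the microtubules of the mitotic spindle. Of 18 spindle and mitosis genes, 16 were higher in Klf9-OE. Intervals were apart for 9 of them (7 when widened), beside 14.8% of genes of at least 1 RPKM. Bub1 was apart in the lower direction, with 98.4 RPKM in the control and 90.2 in Klf9-OE. The median was 0.13, on the other side of 0 from Psrc1, whose interval was too wide to set against it. Ckap5, a microtubule polymerase, was at 75.8 RPKM in the control and 81.1 in Klf9-OE. Of 5 genes of the p53 family and its targets, all were higher and 2, Trp53 and Cdkn1a, had intervals apart, of which only Trp53 stayed apart with the widened interval. Over all genes 52.0% were lower, and 14.8% of genes of at least 1 RPKM were apart in the higher direction. A list of 5 genes is small to read against such shares. Trp53 was at 26.6 RPKM in the control (interval 23.6 to 29.7) and 34.7 RPKM in Klf9-OE (interval 32.6 to 36.7), and Mdm2 was at 64.5 and 68.5 RPKM.

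**Figure D4:**
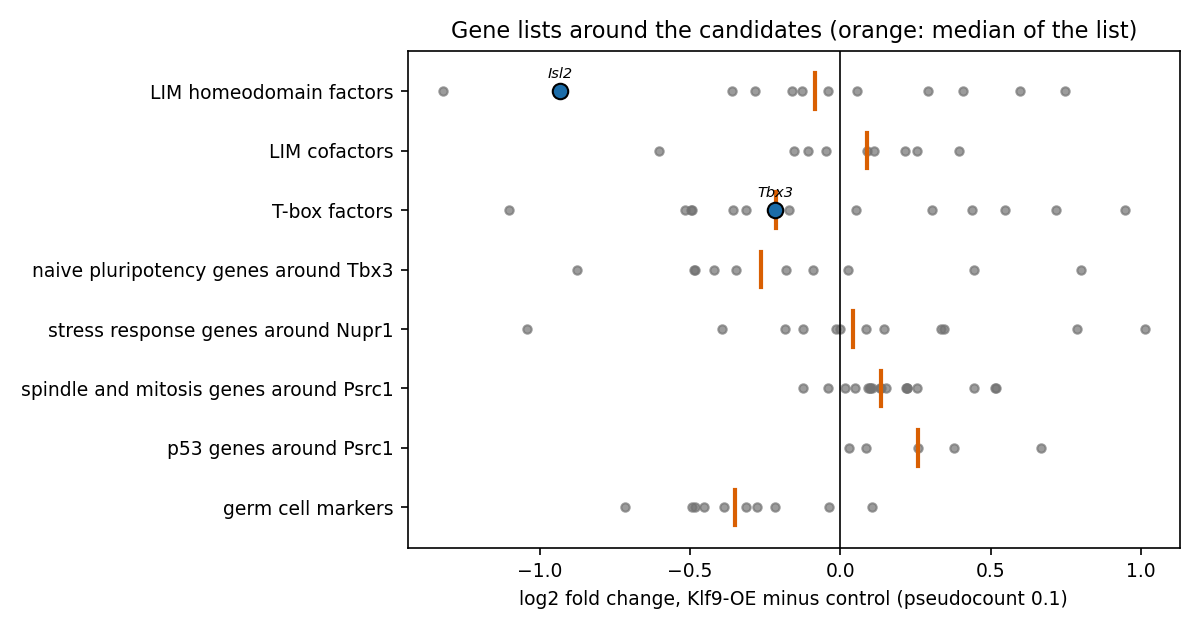
Log2 difference in RPKM + 0.1, Klf9-OE minus control, of each gene in the lists around the candidates (grey points), with the median of each list as an orange bar and Isl2 and Tbx3 in blue within their families. Of the 8 lists drawn, the germ cell markers have the lowest median, -0.35, and the p53 genes the highest, 0.26.

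Markers of the germ cells and of other gonad cells also differed between the libraries. Of 10 germ cell markers, 9 were lower in Klf9-OE, 8 of them with intervals apart, beside 20.2% of genes of at least 1 RPKM. The summed level of the 10 markers was 1759 RPKM in the control and 1480 RPKM in Klf9-OE. Dppa3, a germ cell and early embryo factor, was at 294 and 179 RPKM.

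The markers of other gonad cells lay in both directions. Of 8 gonad somatic markers, 4 were higher and 4 lower in Klf9-OE, with intervals apart for 4 in the higher (3 when widened) and 1 in the lower direction and a median log2 difference of 0.025. Among genes of at least 1 RPKM the shares apart were 14.8% and 20.2%. Their summed level was 19.6 RPKM in the control and 27.3 RPKM in Klf9-OE. The Sertoli cell hormone Amh was at 5.99 and 9.29 RPKM, Gata4 at 6.21 and 7.47 RPKM and Wt1 at 3.41 and 5.64 RPKM. Star, a steroidogenic marker, was listed at 0 and at 2.39 RPKM. It is 1 of the 4 apart in the higher direction only against a control interval of width 0, and it adds 2.39 RPKM to the Klf9-OE sum. Lower in Klf9-OE were the Sertoli cell factor Sox9, at 2.04 and 1.09 RPKM with intervals apart, and Nr5a1, at 1.61 and 1.19 RPKM, and Foxl2 and Cyp17a1 lay below 1 RPKM in both libraries.

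Of 4 endothelial markers, 3 were higher and 1 lower, and their summed level was 19.9 RPKM in the control and 30.2 RPKM in Klf9-OE. Pecam1, which PGCs also express, made up most of that sum. Cdh5 was at 1.995 and 5.09 RPKM, whereas Tek was at 0.735 and 0.439 RPKM, apart only without the widened interval. Of 4 macrophage markers, 2 were higher and 2 lower, with a median of -0.10 and a summed level of 4.14 and 5.33 RPKM. Csf1r was at 0.307 and 1.18 RPKM, and Cd68, the highest of them, at 3.69 and 4.11 RPKM. Ptprc and Adgre1 were below 0.1 RPKM in both libraries, and both were more than 2-fold lower in Klf9-OE with overlapping intervals. The part of these marker differences in the lower levels of Bnc1, Isl2 and Nupr1 was not tested, and in such bulk libraries fewer cells of a type and less RNA per cell cannot be told apart.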

How the data were processed

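Single-end reads of 51 bases were aligned by the authors against mm10 (TopHat2, Bowtie), and the deposited values are Cufflinks FPKM per locus, each with a 95% interval. For single-end reads this is RPKM, and versions are not given in the sources used here. The 5 candidates and all gene lists were chosen with earlier results of these data known. FPKM was summed over loci of the same symbol. Differences were calculated as log2(RPKM + 0.1), Klf9-OE minus control, which understates the change of low genes. A gene counted as changed when its ratio reached 2 or 0.5, or where intervals did not overlap (a value listed at 0 has an interval of width 0). Implied reads were the square of 2 times the RPKM over the distance to its upper bound, and the interval of a ratio, built from them, carries whatever else widened a Cufflinks interval but no error between cultures. No p-value was calculated, since each group had 1 library. Array candidates under a joint name with another gene were not matched. Of each further list, genes of at least 1 RPKM that changed 2-fold and the 2 of highest mean were named, and paralogs always. Dppa3, Lmo1, Lhx4, Cdkn1a, several markers of other cells and genes below 1 RPKM were named after their values were seen. Oligonucleotide letters came from the supplementary list of the study and were searched in the sense direction of GENCODE M21 transcripts. Reverse primers were searched as their reverse complement. Promoters came from RefSeq, which matched 4 of the 5 genes. Implied reads, 2-fold calls and overlap of intervals were run on simulated libraries of equal depth with random read counts. Their intervals followed the formula that the implied reads invert, so recovery of the reads was fixed in advance. Reads in pairs, other sources of interval width and the widened interval were not simulated. Scripts ran under Python 3.11.15 (pandas 2.3.3, numpy 2.4.6, matplotlib 3.10.9, scipy 1.17.1).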

Additional observations from a re-analysis of the deposited data

How the results depend on the processing

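The 5 candidates stayed lower in Klf9-OE under pseudocounts of 0.01 and 1, both rescalings and the highest row per symbol. These settings could not have turned the direction, so its persistence is no support for it. A pseudocount leaves the sign as it is, and each candidate had 1 locus in each file. The rescaling factors for Klf9-OE were only 1.02 (upper quartile) and 1.04 (sum). The log2 difference ranged from -0.25 to -0.18 for Bnc1, -0.997 to -0.57 for Isl2, -0.61 to -0.54 for Nupr1, -0.20 to -0.13 for Psrc1 and -0.29 to -0.061 for Tbx3. The number of candidates changed at least 2-fold, 1 (Isl2), was 0 when RPKM was rescaled to the same upper quartile, 0 with the same sum and 0 with a limit of 4-fold, since the ratio of Isl2 lay next to the limit. Of the array candidates, 7 changed at least 2-fold (4 higher, 3 lower), 4 among genes of at least 1 RPKM (1 higher, 3 lower), because the filter removes low genes, and 1 (Klf9) with a limit of 4-fold. Their median of -0.021 was 0.0080 with the same upper quartile and 0.042 with the same sum and -0.13 among genes of at least 1 RPKM. Widening the Klf9-OE interval, added after seeing the data, left 3 candidates apart, and 13 of 16 array candidates. No paired analysis was possible because each group has 1 library, and no library could be left out. Tbx3 and Isl2 rested on 31.1 and 71.2 implied reads in the control, and the control interval of Psrc1 gave 4.69, which did not reflect its reads.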

Other observations

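The genes next to the candidates on the chromosome did not share 1 direction. Etfa, before Isl2 by 28906 bases, was at 123 RPKM in the control and 111 in Klf9-OE with intervals apart, and Scaper, after it by 3665 bases, at 43.8 and 40.6 RPKM with overlap. Ccdc101, after Nupr1 by 23839 bases, was higher in Klf9-OE, at 40.4 and 49.2 RPKM with intervals apart, and Il27 on its other side was listed at 0 and at 0.119 RPKM. Hdgfrp3, before Bnc1 by 32203 bases, was at 12.9 and 12.1 RPKM with overlap, and Gm20744, after it, at 0.045 and 0.025 RPKM. Celsr2, after Psrc1 by 2617 bases, was at 6.29 and 4.47 RPKM with intervals apart, and Gm12522, before it by 63 bases, at 0.0842 RPKM and listed at 0. Both neighbours of Tbx3, Gm16063 and Tbx3os2, were below 0.1 RPKM in both libraries.

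The genes whose pair of levels lay nearest to each candidate, by distance in log2(RPKM + 0.1) over 2 libraries, were Smpd2 for Bnc1 (distance 0.012), Myh3 for Isl2 (0.038), Rnf121 for Nupr1 (0.015), Styxl1 for Psrc1 (0.012) and Clec3b for Tbx3 (0.0078). With 2 libraries such closeness is a description of levels only.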
